A study of Homo sapiens with 6 samples.

Results

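The genes described here are 4 subunits of the transcription factor NF-kB (NFKB1, NFKB2, RELA and RELB), 4 of its feedback inhibitors and regulators (NFKBIA, NFKBIE, NFKBIZ and TNFAIP3) and the target gene ICAM1. They were chosen by name, as the transcript cluster of the GeneChip HTA 2.0 array that carries the symbol alone in the array annotation. Of 10 genes listed, 9 were measured, out of 22465 genes with a cluster of their own, and each of the 9 had 1 cluster. The other gene on the list, BIRC3, was not analysed here. The tested samples were 3 cultures of SCC25, a human squamous cell carcinoma line of the tongue, exposed to tunicamycin (TM) at 5 µg mL−1 for 6 h in fresh medium. Their reference was 3 SCC25 cultures kept for 6 h in fresh medium with the vehicle DMSO at 0.1%. The submitters describe the replicates of each group as independent and biological. The source field of the 3 TM samples gives the cell line as SCC28, whereas all other fields give SCC25.

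NF-kB is a family of dimers built from RELA, RELB, REL and the processed products of NFKB1 and NFKB2. In resting cells the dimers are held in the cytoplasm by IkB proteins, of which NFKBIA (IkB-alpha) and NFKBIE (IkB-epsilon) are members. The IkB kinases mark IkB for degradation, and the freed dimers enter the nucleus and bind kB sites near their target genes. Several of these targets encode the brakes of the pathway, so that NFKBIA, NFKBIE and the ubiquitin-editing enzyme TNFAIP3 (A20) close a feedback loop. TM blocks N-linked glycosylation and brings about endoplasmic reticulum (ER) stress, in which NF-kB is known to be activated through the stress sensors of the ER.

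The deposited values are log2 expression levels, 1 per transcript cluster and array, as summarised and normalized by the authors, and a difference of 1 on this scale is a doubling of the signal. The array medians lay between 5.49 and 5.52 in the TM arrays and between 5.39 and 5.48 in the control arrays. The 7 measured squamous genes had means between 9.21 and 13.19 (KRT5 the highest), and 6 leukocyte genes had means between 3.26 (PTPRC) and 10.98 (CD68). Levels of different clusters cannot be compared on an array, so these are a description and do not test the label. The arrays numbered 3 went against their labels for genes of the ER stress response. DDIT3, which encodes the stress factor CHOP, was at 9.04, 8.88 and 5.86 in the arrays labelled TM 1, 2 and 3 and at 6.02, 6.01 and 9.28 in those labelled control 1, 2 and 3. HSPA5, which encodes the chaperone BIP, was at 13.42, 13.31 and 12.27 in the TM arrays and at 12.39, 12.27 and 13.51 in the control arrays. The labels were kept, and each result below is given with all 6 arrays and for replicates 1 and 2 alone. Replicates 1 and 2 were set apart with the values known, so calls there do not count as separate evidence for an effect of TM.

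Matches to the binding motif of NF-kB in front of these genes are shown because they link the members to one another as possible targets of the factor. RefSeq promoter windows (GRCh38.p14) were found for 7 of the 9 genes, all but RELB and NFKBIE. The search covered 250 bases upstream of each annotated start, and a gene counted when any of its windows matched. These 7 genes had 1 to 3 windows each. The NF-kB consensus motif, read on both strands, occurred in front of 5 of these 7 genes. In the table it did so for 6.28% of 27305 genes and 5.21% of 35116 windows. Its form GGGAATTTCC was shared by NFKB1, NFKBIA and NFKBIZ (0.176% of all genes) and its form GGGACTTTCC by NFKB2 and TNFAIP3 (0.216%). The last letters of the first form, GGAATTTCC, overlap it and occurred in front of ICAM1 as well, which makes 4 of the 7 against 0.502% of all genes. These forms were picked from the members themselves, so the shares are a description. Each stretch below runs in the direction of its gene, with the match to one of these forms in capitals. Other matches to the consensus are not marked. TNFAIP3 has one in its stretch, 45 bases before the start, and NFKB2 and NFKBIZ have others outside the capitals. In NFKBIA, TNFAIP3 and ICAM1 the form is read on the opposite strand, so the capitals are its reverse complement.
NFKB1, chr4:102501290-102501339, plus strand: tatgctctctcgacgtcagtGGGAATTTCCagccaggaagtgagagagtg
NFKBIZ, chr3:101827747-101827796, plus strand: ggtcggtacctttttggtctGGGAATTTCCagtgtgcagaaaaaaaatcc
NFKBIA, chr14:35404801-35404850, minus strand: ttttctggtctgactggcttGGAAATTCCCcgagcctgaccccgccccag
NFKB2, chr10:102395664-102395704, plus strand: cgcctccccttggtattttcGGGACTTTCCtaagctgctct
TNFAIP3, chr6:137867172-137867221, plus strand: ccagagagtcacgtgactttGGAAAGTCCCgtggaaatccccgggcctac
ICAM1, chr19:10270914-10270962, plus strand: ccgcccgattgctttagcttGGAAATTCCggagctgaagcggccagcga

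The match ended 57 bases before the start in TNFAIP3, 71 in NFKBIA, 177 in ICAM1 and 213 in the first of the 2 windows of NFKBIZ. For NFKB1 it ended 39 bases before the start in 1 of its 2 windows. In NFKB2 it lay 11 bases before 1 of its 3 annotated starts. RELA had no match to these forms in its 2 windows. A match describes letters only, and no binding was measured in this series.

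In replicates 1 and 2, all 9 genes were higher in both TM arrays than in both control arrays, and NFKBIZ and TNFAIP3 rose at an adjusted p under 0.05 in limma. The TM arrays lay above the control arrays without overlap in 36% of all 67528 clusters and in 47.6% of the protein-coding ones, so the share of members is above that of the array as a whole. The 2 called members stand against 0.546% of all clusters called higher and 1.03% of the protein-coding ones. At an unadjusted p under 0.05, 8 of the 9 were higher and 0 lower, where 14.8% of all clusters (17.9% of the protein-coding ones) were higher and 12.1% lower. The median log2 fold change of the 9 was 0.31, against 0.04 over all clusters. With all 6 arrays, 0 of the 9 passed the adjusted threshold in limma (0% of all clusters did) and 1, RELB, had an unadjusted p under 0.05, where 15.3% of all clusters were higher at that level. None of the 9 separated the groups over all 6 arrays, whereas in 20.5% of clusters the lowest TM value was above the highest control value. The median log2 fold change of the 9 was then 0.11, against 0.04 over all clusters.

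**Figure D1:**
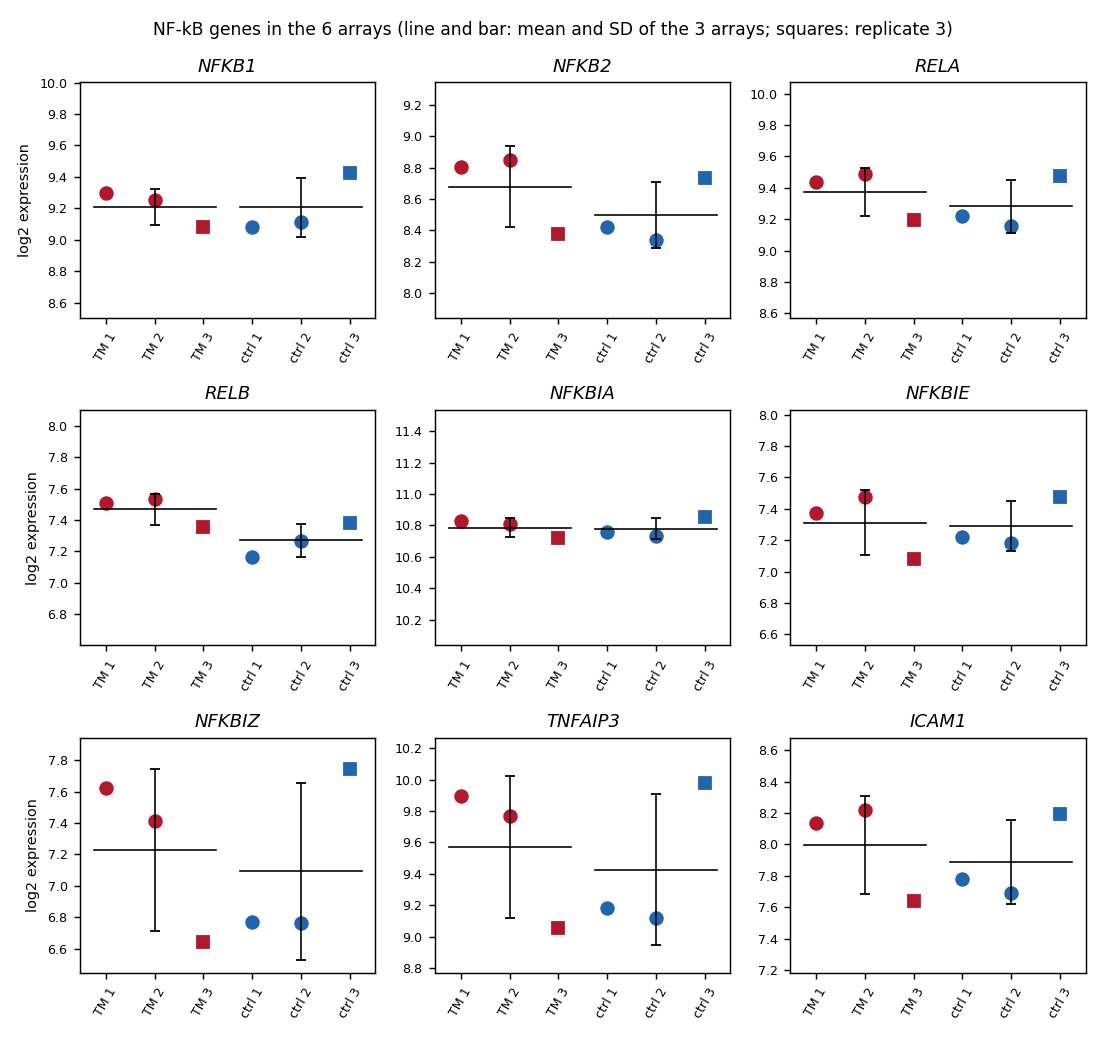
Log2 expression of the 9 NF-kB genes in each array, with 3 TM arrays (red) left of 3 control arrays (blue) and every panel spanning the same height of 1.5 log2 units. Lines and bars give the mean and SD of the 3 arrays, and squares mark replicate 3, where TM 3 lies below control 3 in each panel.

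None of the subunits passed the adjusted threshold, and among them NFKB2 had the highest log2 fold change in replicates 1 and 2 and NFKB1 the lowest. NFKB2, which encodes the p100 precursor of the non-canonical subunit p52, was at 8.80, 8.85 and 8.38 in TM 1, 2 and 3 and at 8.42, 8.34 and 8.74 in control 1, 2 and 3. TM 1, TM 2 and control 3 were thus the high arrays, and the groups overlapped. Its log2 fold change was 0.45 in replicates 1 and 2 (standard error, SE, 0.06, limma adjusted p = 0.0508), just short of the threshold, and 0.18 with all 6 arrays (SE 0.15, limma adjusted p = 0.527).

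RELB, which encodes the usual partner of p52, was the member whose groups overlapped least over all 6 arrays. It was at 7.51, 7.54 and 7.36 in TM 1, 2 and 3 and at 7.17, 7.27 and 7.38 in control 1, 2 and 3. The groups overlapped only through TM 3, which lay 0.02 below control 3. Its log2 fold change was 0.31 in replicates 1 and 2 (SE 0.07, limma adjusted p = 0.0766) and 0.20 with all 6 arrays (SE 0.08, limma adjusted p = 0.221), the highest of the 9 over all arrays. The third subunit, RELA, encodes p65, which carries the main activation domain of the canonical dimer. Its values were 9.44, 9.49 and 9.20 in TM 1, 2 and 3 and 9.22, 9.16 and 9.47 in control 1, 2 and 3. As for NFKB2, TM 3 lay among the arrays labelled control 1 and 2, and control 3 beside TM 1 and 2. The log2 fold change of RELA was 0.28 in replicates 1 and 2 (SE 0.06, limma adjusted p = 0.0827) and 0.09 with all 6 arrays.

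NFKB1, which encodes the p105 precursor of p50, was at 9.29, 9.25 and 9.08 in TM 1, 2 and 3 and at 9.08, 9.11 and 9.42 in control 1, 2 and 3. Here control 3 was the highest of all the arrays, 0.15 above the mean of TM 1 and 2. The log2 fold change of NFKB1 was 0.18 in replicates 1 and 2 (SE 0.06, limma adjusted p = 0.145). Over the 6 arrays it was 0.0036, and it changed sign to −0.07 when each array was centred on its median.

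The inhibitors and regulators held both the highest and the lowest log2 fold changes of the set in replicates 1 and 2. NFKBIZ encodes IkB-zeta, a nuclear IkB protein that is itself induced by NF-kB and helps the dimers to switch on secondary targets. Its level was 7.62, 7.42 and 6.64 in TM 1, 2 and 3 and 6.77, 6.76 and 7.74 in control 1, 2 and 3. In replicates 1 and 2 it was 1.69-fold higher with TM, at a log2 fold change of 0.75 (SE 0.09, limma adjusted p = 0.0372). Over all 6 arrays the value was 0.14 (SE 0.34, limma adjusted p = 0.843).

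TNFAIP3 encodes A20, which removes ubiquitin chains from adaptors of the pathway and so ends its signal. It was at 9.90, 9.77 and 9.06 in TM 1, 2 and 3 and at 9.18, 9.12 and 9.98 in control 1, 2 and 3. Control 3 was the highest array and TM 3 the lowest for TNFAIP3 as for NFKBIZ. TNFAIP3 was 1.60-fold higher with TM in replicates 1 and 2, at a log2 fold change of 0.68 (SE 0.07, limma adjusted p = 0.0356), and had one of 0.15 with all 6 arrays (SE 0.29, limma adjusted p = 0.800). Both calls rest on 4 arrays. Leaving out 1 of them leaves a group of 1 array, assumed to vary like the other group, and of all clusters 0 then passed without TM 1 or TM 2, 129 without control 1 and 30 without control 2, so a call lost there does not describe a weaker effect. The log2 fold change ran from 0.65 to 0.86 for NFKBIZ and from 0.62 to 0.75 for TNFAIP3 in these fits. The adjusted p from limma of NFKBIZ was 0.0779 when TM 1 was also left out, 0.151 for TM 2, 0.0827 for control 1 and 0.122 for control 2, and that of TNFAIP3 was 0.0788, 0.162, 0.0785 and 0.122 in the same order. Quantile normalization gave NFKBIZ an adjusted p of 0.0525 in limma.

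The cytoplasmic inhibitors NFKBIA and NFKBIE did not pass the test. NFKBIA was at 10.83, 10.81 and 10.72 in TM 1, 2 and 3 and at 10.76, 10.73 and 10.85 in control 1, 2 and 3, so that all 6 arrays lay within 0.13 of each other. This was the narrowest range of the 9 genes, while NFKBIZ spanned 1.10. The log2 fold change of NFKBIA was 0.07 in replicates 1 and 2 (SE 0.06, limma adjusted p = 0.453) and 0.0053 with all 6 arrays. NFKBIA thus had the lowest log2 fold change in replicates 1 and 2 and carries the same form of the motif as NFKBIZ in the stretches shown above. Whether the fold changes of these 2 genes differed was not tested.

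NFKBIE was at 7.38, 7.48 and 7.08 in TM 1, 2 and 3 and at 7.22, 7.18 and 7.47 in control 1, 2 and 3. TM 3 was its lowest array. Its log2 fold change was 0.23 in replicates 1 and 2 (SE 0.07, limma adjusted p = 0.117) and 0.02 with all 6 arrays. Under median centring the value over all 6 arrays was −0.05 for NFKBIE and −0.07 for NFKBIA.

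ICAM1, a target gene that encodes an adhesion protein of the cell surface bound by leukocyte integrins, had a log2 fold change close to that of NFKB2. It was at 8.13, 8.22 and 7.64 in TM 1, 2 and 3 and at 7.78, 7.69 and 8.19 in control 1, 2 and 3. TM 2 and control 3 were its highest arrays and lay within 0.03 of each other. The log2 fold change of ICAM1 was 0.44 in replicates 1 and 2 (SE 0.07, limma adjusted p = 0.0545) and 0.11 with all 6 arrays (SE 0.19, limma adjusted p = 0.761).

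**Figure D2:**
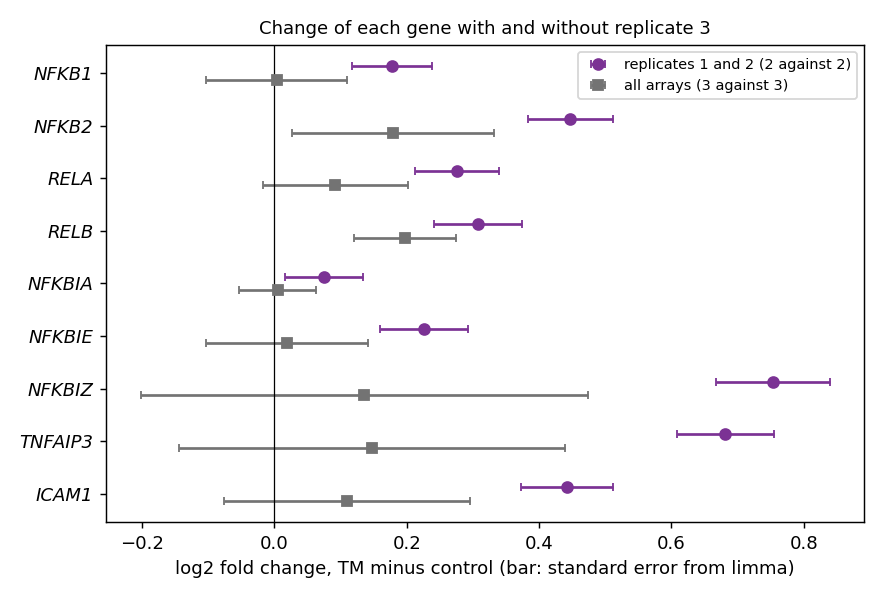
Log2 fold change (TM minus control) of each gene on the horizontal axis, with the standard error from limma as a bar, for replicates 1 and 2 (circles) and for all arrays (squares). The circles run from 0.07 for NFKBIA to 0.75 for NFKBIZ, and the squares lie between 0.0036 and 0.20, with wider bars in all genes but NFKBIA.

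In the arrays of replicate 3 all 9 genes ran against their labels, as the ER stress genes did. The value labelled TM 3 was below that labelled control 3 in 9 of 9 members, against 34.6% of all clusters. The difference of TM 3 minus control 3 ran from −1.10 for NFKBIZ and −0.92 for TNFAIP3 to −0.02 for RELB, with a median of −0.36. NFKBIZ and TNFAIP3, the 2 genes called in replicates 1 and 2, thus had the largest differences of the opposite sign in replicate 3. For all 9 genes control 3 was nearer to the mean of TM 1 and 2 than to that of control 1 and 2 (41.3% of all clusters), and TM 3 was nearer to control 1 and 2 (52.6% of all clusters). RELB was the least clear of them, as its TM 3 array lay 0.14 above control 1 and 2 and 0.17 below TM 1 and 2. What brought about the values of these arrays was not tested.

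**Figure D3:**
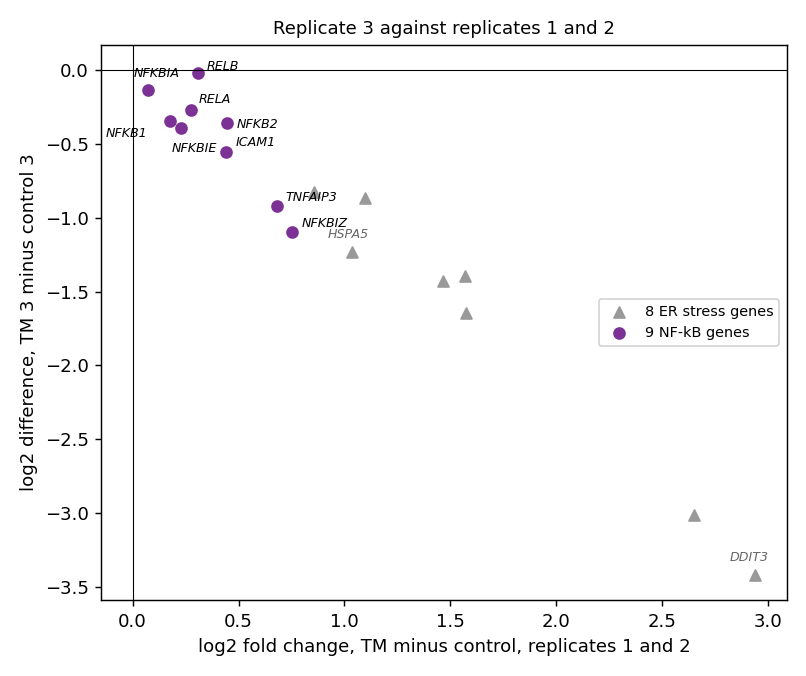
Each point is a gene, with its log2 fold change (TM minus control) in replicates 1 and 2 on the horizontal axis and the log2 difference of TM 3 minus control 3 on the vertical axis. All 9 NF-kB genes (circles) and all 8 ER stress genes (triangles) lie right of 0 and below 0, from RELB at −0.02 to DDIT3 at −3.42.

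Across the 6 arrays the members kept close to each other. Over the 36 pairs of members Pearson's r had a median of 0.94, with NFKBIZ and TNFAIP3 highest at 0.997 and RELB and NFKBIA lowest at 0.58. These are descriptions over 6 arrays that share a split of TM 1, TM 2 and control 3 against the rest. Outside the set, 74 clusters of protein-coding genes had a range of at least 1 log2 unit. This filter favours genes with large differences among the arrays. The 5 most like the mean of the members were DNAJC3, ERO1B, HERPUD1, SLFN11 and DDIT3, each with r of 0.999 over 6 arrays. That mean was not scaled, so NFKBIZ and TNFAIP3, with the widest ranges of the members, weigh most in it. DNAJC3 encodes an ER co-chaperone, ERO1B an ER oxidase, HERPUD1 a protein of ER-associated degradation and SLFN11 a protein that blocks stressed replication forks. HERPUD1 was at 12.26, 12.16 and 9.34 in TM 1, 2 and 3 and at 9.64, 9.48 and 12.35 in control 1, 2 and 3, a range of 3.01, against one of 0.92 in TNFAIP3. TM 1, TM 2 and control 3 were the high arrays in both genes.

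Of 75 other genes measured in 5 lists of the pathway, IRAK2 and PLAU passed the adjusted threshold in replicates 1 and 2. In these arrays 0.546% of all clusters and 1.03% of the protein-coding ones were called higher. In replicates 1 and 2, 0 of 8 other subunits, IkB proteins and modulators passed the adjusted threshold in limma, while 3 were higher and 1 was lower at an unadjusted p under 0.05 (14.8% and 12.1% of all clusters). BCL3, a nuclear IkB protein that works with p50 and p52, had a log2 fold change of 0.31 (limma adjusted p = 0.0774), and NFKBIL1 had one of 0.26. NKRF, which encodes a repressor of NF-kB targets, had one of −0.35 (limma adjusted p = 0.0772) and COMMD1, which encodes a protein that promotes the turnover of RELA, one of −0.13. REL, the remaining subunit, differed little among the arrays, with 9.34, 9.31 and 9.40 in TM 1, 2 and 3 and 9.36, 9.38 and 9.39 in control 1, 2 and 3.

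None of the kinases upstream of NF-kB was called, nor were their partner proteins IKBKG, TAB2 and TAB3, which are not kinases and were listed with them. Of 11 measured, 0 passed the adjusted threshold in limma in replicates 1 and 2, and 2 were higher and 1 was lower at an unadjusted p under 0.05, which is near the 14.8% and 12.1% of all clusters. Their median log2 fold change was −0.02, against 0.04 over all clusters. IKBKE and IKBKB, both IkB kinases, had log2 fold changes of 0.26 and 0.21 (limma adjusted p = 0.0855 and 0.106). TBK1, a relative of IKBKE, had one of −0.26, and CHUK (IKK-alpha), the kinase of the non-canonical branch, had one of −0.14. TBK1 lay between 7.90 and 8.09 in the TM arrays and between 8.21 and 8.22 in the control arrays, without overlap, and 7.49% of all clusters were lower in this way. CHUK did not overlap either, at 7.89, 7.84 and 7.85 in the TM arrays and at 8.02, 7.99 and 8.10 in the control arrays. Over all 6 arrays 4 of the 11 genes of this list were lower without overlap, TAB3 among them. Higher without overlap were 2, IKBKG among them. The shares were 7.49% and 20.5% of all clusters, and 11.3% and 27.2% of the protein-coding ones. The limma adjusted p over all 6 arrays was 0.156 for TBK1 and 0.166 for CHUK.

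Of 24 measured adaptors and ubiquitin enzymes, IRAK2 alone passed the adjusted threshold in replicates 1 and 2, while 23 did not. Called higher there were 0.546% of all clusters and 1.03% of the protein-coding ones. The log2 fold change was above 0 in 17 of the 24, against 58.7% of all clusters. IRAK2 encodes a kinase-like adaptor of the interleukin-1 and Toll-like receptors. It was at 8.13, 8.21 and 7.43 in TM 1, 2 and 3 and at 7.44, 7.39 and 8.27 in control 1, 2 and 3, with a log2 fold change of 0.76 in replicates 1 and 2 (SE 0.06, limma adjusted p = 0.0237) and 0.23 with all 6 arrays (limma adjusted p = 0.682). As for NFKBIZ, TM 1, TM 2 and control 3 were the high arrays. With 1 of the 4 arrays also left out its log2 fold change ran from 0.72 to 0.80, at an adjusted p from limma of 0.0701 without TM 1, 0.162 without TM 2, 0.0633 without control 1 and 0.0969 without control 2. TRAF1, which encodes a signal adaptor and is itself a target of NF-kB, had a log2 fold change of 0.38 (limma adjusted p = 0.0545). TRAF5, another adaptor, had one of −0.37 (limma adjusted p = 0.0634), and BTRC, whose product binds marked IkB for degradation, had one of −0.19. At an unadjusted p under 0.05, 9 of the 24 were higher and 2 lower, where 14.8% of all clusters were higher and 12.1% lower.

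Of 12 measured receptors 0 passed the adjusted threshold in limma in replicates 1 and 2, and 4 were higher and 1 was lower at an unadjusted p under 0.05 (14.8% and 12.1% of all clusters). TNFRSF12A, the receptor of TWEAK, had a log2 fold change of 0.44 (limma adjusted p = 0.0545) and LTBR, the lymphotoxin-beta receptor, one of 0.19. IL1R1, an interleukin-1 receptor, had one of −0.19 and TNFRSF1A, a receptor of TNF, one of −0.10.

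Of 20 measured further targets of NF-kB, PLAU passed the adjusted threshold in replicates 1 and 2 and 19 did not. Called higher there were 0.546% of all clusters and 1.03% of the protein-coding ones. At an unadjusted p under 0.05 13 were higher and 0 lower (14.8% and 12.1% of all clusters), and the median log2 fold change was 0.27, against 0.31 in the 9 members and 0.04 over all clusters. PLAU, which encodes the plasminogen activator urokinase, was at 9.36, 9.32 and 8.75 in TM 1, 2 and 3 and at 8.84, 8.79 and 9.40 in control 1, 2 and 3. Its log2 fold change was 0.53 in replicates 1 and 2 (SE 0.06, limma adjusted p = 0.0382) and 0.13 with all 6 arrays (limma adjusted p = 0.752). With 1 of the 4 arrays also left out it ran from 0.50 to 0.55, at an adjusted p from limma of 0.0835 without TM 1, 0.193 without TM 2, 0.0846 without control 1 and 0.130 without control 2. IRF1, a transcription factor of interferon responses, had one of 0.32 in replicates 1 and 2 (limma adjusted p = 0.0669). CD44, an adhesion receptor, and CD83, a surface protein of antigen-presenting cells, had values of −0.06 and −0.03. In the fit of all 6 arrays 0 genes of these 5 lists passed in limma, and of their 75 measured genes 9 were higher and 3 lower at an unadjusted p under 0.05, where 15.3% of all clusters were higher and 5.14% lower, so these genes were not called more often than the array as a whole.

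**Figure D4:**
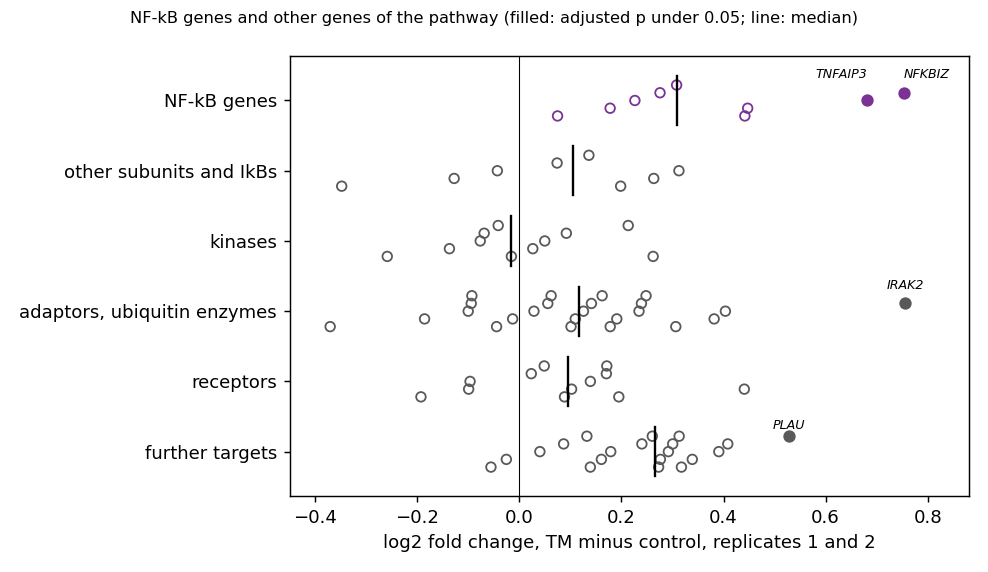
Log2 fold change (TM minus control) in replicates 1 and 2 for each gene of 6 lists, where filled points passed an adjusted p of 0.05 and vertical lines give the median of a list. The medians lie at 0.31 for the 9 NF-kB genes, 0.27 for further targets and −0.02 for kinases with their partner proteins. The called genes are NFKBIZ, TNFAIP3, IRAK2 and PLAU.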

How the data were processed

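RNA of SCC25 cells was measured on GeneChip HTA 2.0 arrays, 3 of TM-treated and 3 of control cells. The authors deposited log2 expression values, already summarised and normalized, for 67528 transcript clusters. The submitters' processing notes name MAS5. The background correction is not given in the sources used here, nor is the genome build, and the files give no background level, so no cluster was left out as dim. The values were used as deposited. Symbols came from the array's annotation, updated through the GRCh38.p14 gene table, where 23471 of the 23781 clusters with 1 symbol were found. The cluster with the highest mean was kept for a gene.

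TM was compared with control by two-sided tests of limma (version 3.58.1, R 4.3.3; lmFit and eBayes), and p-values were adjusted by Benjamini-Hochberg over every cluster, with a threshold of 0.05. The methods of the paper name no test for the array. The fit was tested on simulated data. Members and lists were chosen with earlier results of these data known. Named in the text are all members, DDIT3 and HSPA5, the 2 genes with the smallest p in each direction of each pathway list, and the 5 genes most like the members. REL, KRT5, PTPRC and CD68 were added after their values were seen. The alternatives were quantile normalization, median centring, only clusters above the median level, eBayes with its trend and robust options, a block for the replicate number and leaving out arrays. The number of arrays limits the precision. Python 3.11.15 and matplotlib 3.10.9 were used for figures.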

Additional observations from a re-analysis of the deposited data

How the results depend on the processing

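With all 6 arrays, 0 clusters and 0 of the 9 genes passed in limma under each alternative except leaving out both arrays numbered 3, which gave 825 clusters (369 higher and 456 lower with TM) and 2 genes. The direction of small changes was not stable there. With 1 array left out, the median log2 fold change of the 9 genes ran from −0.012 to 0.25, NFKB1 from −0.058 to 0.11, NFKBIA from −0.020 to 0.041, NFKBIE from −0.063 to 0.13, NFKBIZ from −0.062 to 0.46, TNFAIP3 from −0.014 to 0.42 and ICAM1 from −0.00075 to 0.29. Median centring gave −0.068 for NFKB1, −0.066 for NFKBIA and −0.051 for NFKBIE, and quantile normalization −0.0036 for NFKBIE. RELB (0.13 to 0.31), NFKB2 (0.094 to 0.45) and RELA (0.021 to 0.28) stayed above 0 under all 12 alternatives. For RELB the unadjusted p from limma was 0.193 with centring, 0.0615 with quantile normalization and 0.0883 with the block. It was 0.0359 among clusters above the median level, 0.0320 with trend and robust options and 0.0162 to 0.125 with 1 array left out. In replicates 1 and 2 each of the 9 genes stayed higher with TM under all 9 alternatives, while the number of calls moved. Of all 67528 clusters, 1872 were called with centring (563 higher, 1309 lower) and 4571 with trend and robust options (1860 higher, 2711 lower). Of the 33764 clusters above the median level, 5616 were called (2727 higher, 2889 lower). Quantile normalization gave 560 clusters of 67528 (259 higher, 301 lower). With 1 array left out there were 0 to 129 clusters (0 to 70 higher and 0 to 59 lower) and 0 of the 9 genes, and the median of the 9 genes ran from 0.29 to 0.36. Of the 9 genes, 1 was called with quantile normalization, where NFKBIZ had an adjusted p of 0.0525 from limma. There were 6 called among clusters above the median level and 6 with trend and robust options. Both of those fits also called more clusters than the 825 of the main fit, as given above. NFKB2 passed with centring too (adjusted p = 0.0497 from limma). A block for the replicate number left 28 clusters (18 higher, 10 lower) and 0 of the 9 genes called, and the adjusted p from limma was 0.0986 for NFKBIZ, 0.0911 for TNFAIP3, 0.0885 for IRAK2 and 0.0989 for PLAU. With all 6 arrays the block also gave 0 clusters. The deviations of TM and control arrays with the same number from their group means correlated at −0.18, −0.31 and −0.53. No TM array was closest to the control array of its own number. These deviations carry the values of the arrays numbered 3, which lay near the other group, so they cannot decide whether the numbers pair the arrays. The cause of the shifts between alternatives was not tested. The mean over all clusters of a gene could not be set against the main choice, as each of the 9 genes had 1 cluster. No depth or signal over background is given for the arrays.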
